A study of Mus musculus with 6 samples.

Results

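The imprinted Dlk1-Dio3 domain of distal mouse chromosome 12 carries a large cluster of miRNAs, and it was examined here in splenocytes of lupus-prone mice exposed to an estrogen. Its members were the mouse probes of a miRNA panel whose name is that of a cluster miRNA, alone or with an arm suffix, and there were 61 of them, from 50 hairpins, among 566 mouse miRNA probes. Of these 61 probes, 22 named an arm (3p or 5p) and 39 did not, and both arms of 11 hairpins were measured. No probe for a star strand of these hairpins and no combined probe was among them. The members were listed by name as miRNAs of the cluster, with earlier results of these data known, and no level entered the rule.

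All mice were female NZB/WF1, a hybrid in which lupus arises without any induction. Their implants held the body's own estrogen, 17-beta estradiol (E2), or 17alpha-ethinyl estradiol (EE), a synthetic relative with an added ethinyl group that is used in contraceptive pills, or were empty (placebo control). Mice received them when 6 to 7 weeks old, and splenocytes were taken 9 weeks later. Each group held 2 samples, 6 in all. The labels do not say whether replicate samples were taken from different mice, and the implant dose was not known here. miRNAs were counted with the nCounter assay, which reads colour-coded barcodes on single molecules without amplification, and the values below are normalized counts.

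The domain is imprinted, so that each gene in it is read from a single parental copy. The protein-coding genes Dlk1, Rtl1 and Dio3 are read from the paternal copy. The non-coding transcripts Meg3, Rian and Mirg, which host most of the miRNAs, are read from the maternal copy. The miRNAs are best known from brain, embryo and placenta, and they have been reported as raised in splenic lymphocytes of lupus-prone mice with disease. The panel thus allowed the question of which of them is detected in spleen, and whether either estrogen moves them.

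A reference entry was found in RefSeq (GRCm38.p6) for 48 of the 50 hairpins, and all 48 lie on the plus strand of chromosome 12, within 180 kb. These entries hold 91 mature miRNAs with 85 different seeds, the bases 2 to 8 that pair with a target. Only 6 seeds were shared, each by 2 mature miRNAs, so most members have a seed of their own. The miR-376 family is shown because its member miR-376a gave the main signal of the cluster. Its sequences are from RefSeq, GRCm38.p6, plus strand, 5′ to 3′, with the seed in capitals:
miR-376a-3p (chr12:109723824-109723844): aUCGUAGAggaaaauccacgu
miR-376b-3p (chr12:109723508-109723528): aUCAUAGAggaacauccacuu
miR-376a-5p (chr12:109723786-109723807): gGUAGAUUcuccuucuaugagu
miR-376b-5p (chr12:109723471-109723492): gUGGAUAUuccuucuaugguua
miR-376c-5p (chr12:109722733-109722754): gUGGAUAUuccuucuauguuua

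The probe for miR-376a names no arm. In miRBase releases of the age of this panel the unsuffixed name belonged to the 3p arm, which is given as background and was not checked against a probe sequence. miR-376a-3p and miR-376b-3p are identical at 18 of 21 positions. Counted from 1 at the 5′ end of miR-376a-3p, the differences are G4A in the seed and A13C and G20U outside it. miR-376b-5p and miR-376c-5p share their seed and differ by G19U alone. The reference held no 3p arm of miR-376c, so that arm is neither shown nor compared. Transcripts of this family are known substrates of A-to-I RNA editing, which can change the seed, and whether the probe also reads edited forms is not known from these data.

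Only miR-376a of the 61 cluster probes stood above the detection floor in its mean over the 6 samples, at 102 normalized counts. The floor of 53.3 normalized counts was the mean + 2 SD of the 48 values of the 8 negative control probes, which match no miRNA. Across the panel 95 of 566 mouse miRNA probes were above it, or 16.8%, against 1.64% of the cluster and 18.6% of the 505 mouse probes outside it. Counted by sample, 0 cluster probes were above the floor in E2 sample 1 and in placebo sample 1, and 1 was above it in each of the other samples, miR-376a each time. By a stricter reading, above the highest negative control of the same sample in all 6 samples, 79 of 566 mouse probes passed and 0 of the cluster did.

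The other 60 cluster probes had 360 values in all, and none was above the floor or above the highest negative control of its own sample. Their means over the 6 samples ran from 1 to 29.2 normalized counts with a median of 9.83, and their highest single value was 48. By mean level, 31 were under 10, 20 were from 10 to 20 and 9 were at 20 or more. The 33 probes for miRNAs of mouse herpesviruses had means of 3.33 to 25.5 with a median of 16.2, and of the 60 cluster probes only miR-539 had a mean above the highest of these. The 60 were therefore not detectable above background by this assay, which sets a limit of about the floor on their level and does not show that they are absent.

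**Figure D1:**
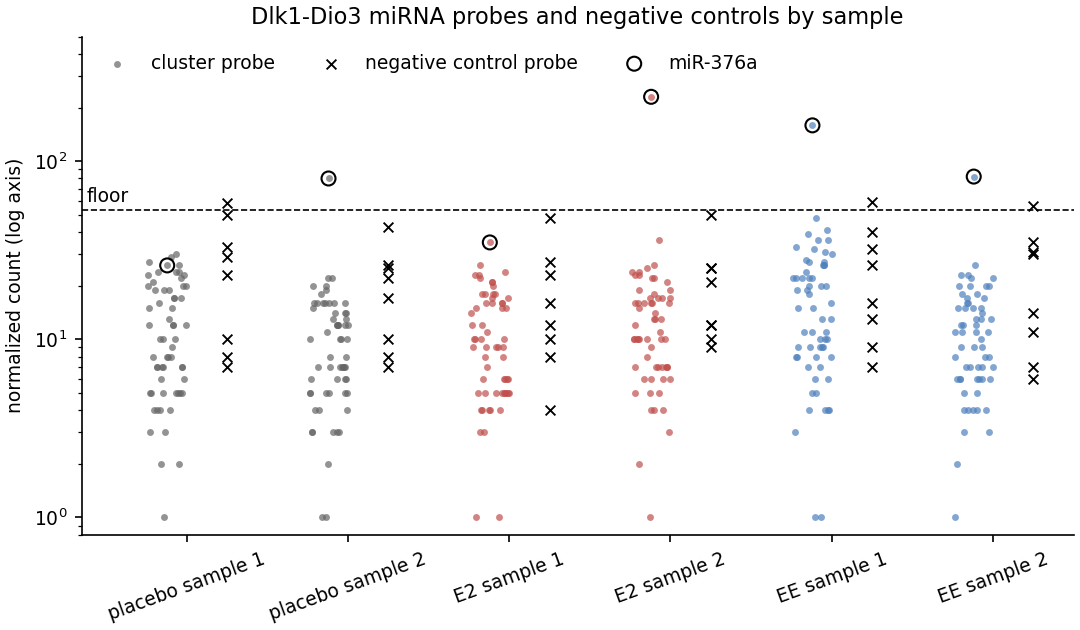
Normalized counts (log axis) of the 61 cluster probes (dots) in each of the 6 samples, beside the 8 negative control probes (crosses), with miR-376a ringed and the detection floor of 53.3 as a dashed line. miR-376a is the only cluster probe above the floor, in 4 of the 6 samples, and the other 60 lie under the highest negative control of each sample.

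**Figure D2:**
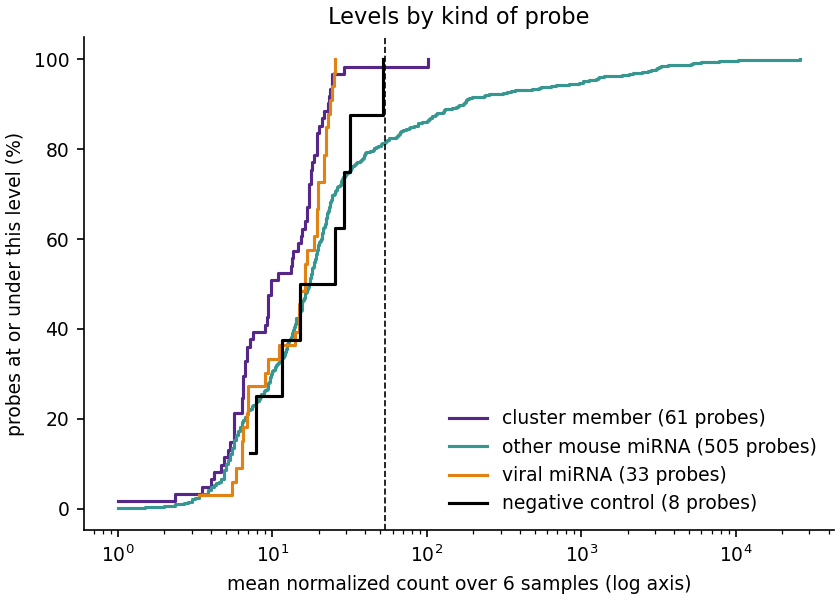
Cumulative share of probes (percent) by their mean normalized count over 6 samples (log axis), for the cluster, the other mouse miRNAs, the viral miRNAs and the negative controls, with the floor dashed. All cluster probes but miR-376a lie at or under 29.2, and 18.6% of the other mouse probes lie to the right of the floor.

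The cluster was also described by position, in 3 groups. The 6 probes for miRNAs transcribed antisense to Rtl1, whose transcript they are known to cleave, had means of 5.67 to 24.3 normalized counts, and 0 were above the floor. miR-127, of this group, was listed at 5 and 6 normalized counts with placebo, 3 and 5 with E2 and 5 and 10 with EE. These low values overlapped between the groups. miR-431 and miR-433 were the brightest of the group, with means of 24.3 and 23.0, close to the mean of 22.5 of the negative controls.

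The 12 probes on the Meg3 and Rian side had means of 2.33 to 21.5 normalized counts, the highest that of miR-770-3p, whose hairpin lies in Meg3, and 0 were above the floor. The 43 probes of the stretch from miR-379 to miR-410, hosted by Mirg, included miR-376a and otherwise stood under the floor. miR-379 was at 4 to 9 normalized counts and miR-410 at 7 to 12 over the 6 samples. miR-134, known from rat neurons as a regulator of dendritic spine size, was at 8 to 16. miR-494 was at 4 to 10, and miR-543 was listed at 1, the lowest value of the table, in all 6 samples, as was 1 further mouse probe. Apart from miR-376a, no group of the domain thus stood above the others beyond the range of the negative controls.

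**Figure D3:**
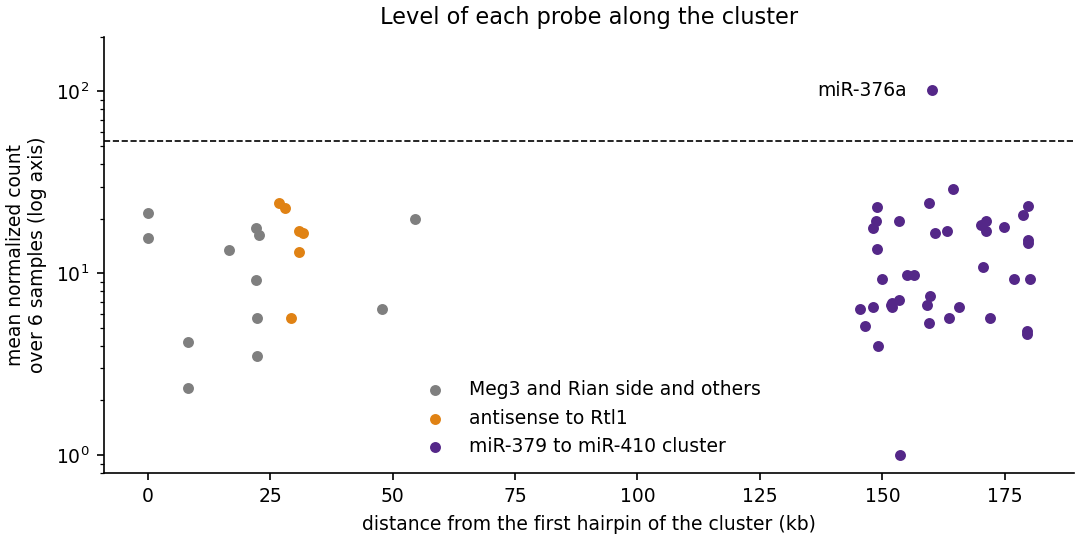
Mean normalized count over 6 samples (log axis) of the 59 probes with a reference position, against the distance in kb of their hairpin from the first hairpin of the cluster. All points of the 3 positional groups lie under the dashed floor of 53.3 apart from miR-376a at 102.

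The nearest neighbours of miR-376a were among the low probes. From Mir376c through Mir654, Mir376b and Mir376a to Mir300 the hairpins take up 1674 bases. Over the 6 samples miR-376b, the family member whose 3p arm is shown above, was at 6 to 9 normalized counts, and miR-376c was at 4 to 11. The means of miR-654-3p and miR-300 were 24.5 and 16.7. miR-376a thus stood at 102 between neighbours within the range of the negative controls, on a scale where levels of different probes also depend on how well each probe captures its target.

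For miR-376a the placebo samples gave 26 and 80 normalized counts, the E2 samples 35 and 230, and the EE samples 159 and 82. The values overlapped between E2 and placebo and between E2 and EE, while both EE samples were above both placebo samples, 82 against 80 at the closest, as was true in either direction of 63.2% of the 95 miRNAs above the floor. E2 sample 1 and placebo sample 1 were under the highest negative control of their own sample, and E2 sample 2 was 4.60-fold above its own. The group means were 53.0 ± 38.2 with placebo, 132.5 ± 138 with E2 and 120.5 ± 54.4 with EE (SD, n = 2 each). In E2 sample 2 it ranked 40 among the 566 mouse probes, and in placebo sample 1 it ranked 163.

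**Figure D4:**
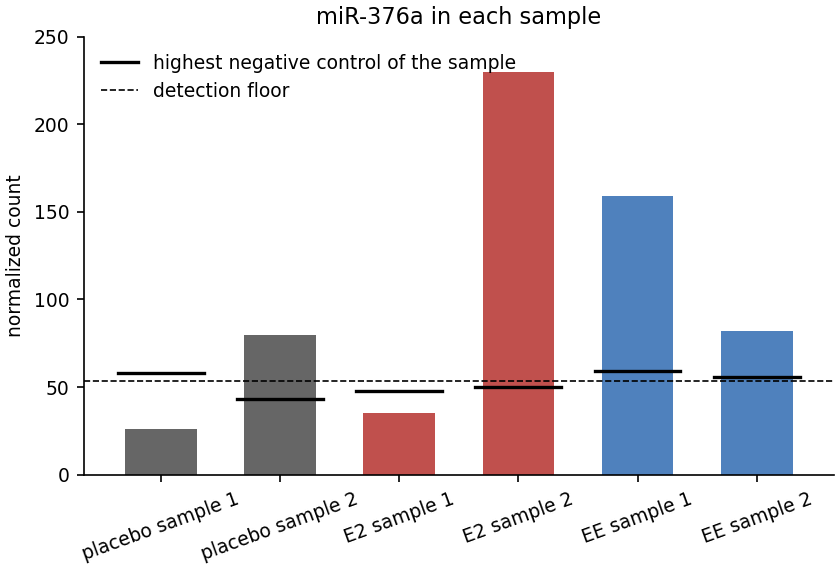
Normalized counts of miR-376a in each sample (bars), with the highest negative control of that sample as a black line and the detection floor of 53.3 dashed. The 2 samples of a group differ widely, from 35 to 230 with E2, and the groups E2 and placebo overlap.

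miR-376a varied more between samples of a group than any other of the 95 miRNAs above the floor. Its pooled within-group SD was 1.33 log2 units, against a median of 0.17 over the 95. The difference within a group was 2.68 log2 units with E2 and 1.58 with placebo, in each case the largest of the 95, and 0.95 with EE, where only miR-155 differed more. The 26 tested miRNAs within 1.5-fold of its mean level had a median SD of 0.19, though the values of miR-376a in E2 sample 1 and placebo sample 1 lay well under its mean. The highest of the 26 was that of miR-155, a miRNA of activated immune cells, at 1.28. miR-155 was at 111 and 204 normalized counts with placebo, 94 and 57 with E2 and 20 and 159 with EE, so with E2 and with EE the sample higher for miR-155 was the lower for miR-376a, while placebo sample 2 was the higher for both.

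**Figure D5:**
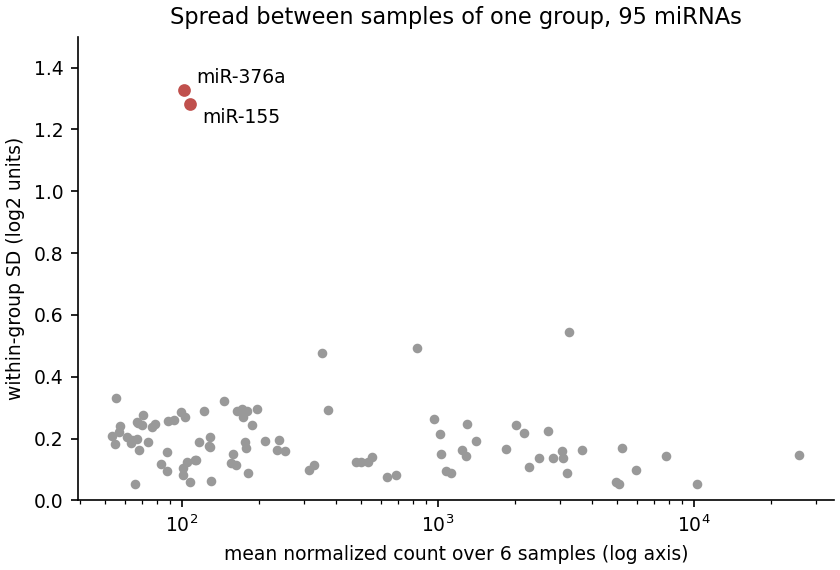
Pooled SD between samples of a group (log2 units) against mean normalized count (log axis) for the 95 tested miRNAs. miR-376a at 1.33 and miR-155 at 1.28 stand apart from the other 93.

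The comparison of E2 with placebo asked whether the natural hormone moved the cluster, and 0 members passed in limma's moderated test, where 10.5% of the 95 tested miRNAs did. miR-376a was the sole member tested. Its placebo mean of 53.0 was under the floor of 53.3, so it passed the filter only through its E2 and EE values. Its tests against placebo are therefore not independent of that filter. Its log2 fold change was 0.96 ± 0.74 (SE) with a 95% interval of -0.67 to 2.59, and its adjusted p was 0.370. Its unadjusted p was 0.218, and an exact two-sided permutation test gave p = 0.667, where 2 samples against 2 cannot go below 0.333. Over all 95 the median was -0.20. Without E2 sample 2 the log2 fold change turned to -0.38, without E2 sample 1 it was 2.30, and it was 0.17 without placebo sample 1 and 1.76 without placebo sample 2. None of these passed.

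With EE against placebo, 26.3% of the tested miRNAs passed and again 0 members did. The log2 fold change of miR-376a was 1.30 ± 0.74 (SE), with a 95% interval of -0.33 to 2.93, an adjusted p of 0.201 and an exact permutation p of 0.333. As with E2, this test and all those below against placebo are not independent of the filter, which miR-376a passed only through its estrogen values. The median of all 95 was -0.11. The log2 fold change of miR-376a was 0.51 without placebo sample 1 and 2.09 without placebo sample 2, and neither passed. Both estrogens pooled against placebo gave 1.13 ± 0.64 (SE) with an adjusted p of 0.216 by limma, where 23.2% of the 95 passed. Of the 4 estrogen samples 3 were above both placebo samples for miR-376a, and E2 sample 1 was not. Without E2 sample 1 the pooled log2 fold change was 1.80 with an adjusted p of 0.0334 by limma, so this call depended on leaving that sample out. It was 0.34 without placebo sample 1, 0.46 without E2 sample 2 and 1.92 without placebo sample 2, and none of these passed. Scaling by housekeeping mRNAs also brought miR-376a past the threshold with EE and with both estrogens pooled. There limma's prior degrees of freedom became infinite and the SD used for miR-376a was 0.33 log2 units, against a residual SD of 1.34 of its own in that fit. Other settings went the other way. With limma's robust eBayes the SD used was its own, 1.33, and the adjusted p was 0.559 with EE and 0.532 pooled. With quantile normalization the adjusted p by limma was 0.399 with EE and 0.378 pooled.

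For EE against E2, 7.37% of the tested miRNAs passed and 0 members did. The log2 fold change of miR-376a was 0.34 ± 0.74 (SE), with an adjusted p of 0.846 by limma and a 95% interval of -1.29 to 1.97. It was -1.003 without E2 sample 1, 1.68 without E2 sample 2 and -0.14 without EE sample 1, and none of these passed. The interval is too wide to show that the compounds act alike, and the doses were not known here. In these fits the SD of miR-376a entered as 0.74 after moderation, lower than its own 1.33, so the intervals are narrower than its own samples alone would give.

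When all 566 mouse probes were tested without the floor, so that all 61 members entered, 0 members passed in any comparison by limma, where 0.883% of all probes passed with E2, 2.47% with EE, 0% for EE against E2 and 1.94% with both estrogens. At an unadjusted p under 0.05 by limma, 1 member passed with E2, 2 with EE and 1 for EE against E2, or 1.64%, 3.28% and 1.64% of the 61, against 9.89%, 12.2% and 6.54% of all probes. With both estrogens pooled it was 2 members, or 3.28% against 12.5%. These were miR-673-3p with E2, miR-377 and miR-381 with EE and with both estrogens, and miR-758 for EE against E2. miR-377 was at 5 normalized counts in both placebo samples, 9 and 7 with E2 and 18 and 12 with EE, and miR-381 at 13 and 8 with placebo, 18 and 16 with E2 and 28 and 20 with EE. The EE values of both were above their placebo values, where 30.9% of all 566 probes did not overlap in either direction, and all 12 lay under the highest negative control of their sample. Their adjusted p-values with EE were 0.113 and 0.163.

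The brightest members under the floor by single values were miR-539, miR-1197, miR-433 and miR-654-3p, each highest in EE sample 1. miR-539 was at 24 and 20 normalized counts with placebo, 21 and 36 with E2 and 48 and 26 with EE. miR-1197 was at 17 and 13, 12 and 18, and 41 and 15 in the same order. For both, EE sample 1 was high and EE sample 2 overlapped the other groups. miR-433 reached 39 in EE sample 1 against 20 in EE sample 2 and 29 in placebo sample 1, and miR-654-3p reached 36 against 20 and 27.

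EE sample 1 was high for many low probes. It held the single highest value of 31 of the 60 members other than miR-376a, of 21 of the 33 viral probes and of 3 of the 8 negative controls. Placebo sample 1 also held the highest value of 3 negative controls, and their mean was highest there, at 27.3 normalized counts against 25.3 in EE sample 1 and 18.5 to 23.8 in the others. The mean of the 60 members was 16.8 normalized counts in EE sample 1, against 9.82 to 12.7 in the other 5 samples. The mean viral probe was at 19.8 in EE sample 1, against 11.7 to 16.5 in the others. The ratio of these means was 0.85 in EE sample 1 and 0.77 to 0.85 in the other samples, so the means of the members and of the viral probes moved together from sample to sample. The means of the negative controls went along only in part, as they were highest in placebo sample 1.

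Summed over all 61 members, the cluster held 761 and 669 normalized counts with placebo, 690 and 990 with E2 and 1164 and 750 with EE, or 0.481% to 1.03% of all mouse miRNA counts. The groups overlapped. In every sample the sum was under what 61 probes at the mean of the negative controls would give, 1129 in E2 sample 1 and 1540 in EE sample 1 for example. Without miR-376a the sums were 735 and 589, 655 and 760, and 1005 and 668 in the same order.

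Markers of the cell types in spleen, and of others where the cluster is better known, were read on the same scale. All 4 miRNAs of the lymphoid list were above the floor, in keeping with the label. Their sums were 57810 and 48317 normalized counts with placebo, 33658 and 31165 with E2 and 21712 and 21482 with EE. Most of each sum was miR-150, at 44123 and 35124 with placebo, 24211 and 22678 with E2 and 15277 and 14140 with EE. The 3 erythroid markers, all above the floor, had sums of 1393 and 596 with placebo, 5230 and 4376 with E2 and 7933 and 7187 with EE. The 4 myeloid markers, also all above it, had sums of 2743 and 2205, 4738 and 4371, and 2993 and 3017 in the same order, and the endothelial list, with 1 of 2 above it, 84 and 84, 115 and 100, and 166 and 193. The myeloid list did not move as one. In the same order miR-223 was at 1308 and 911, 3522 and 3244, and 1984 and 2042, while miR-23a fell, at 803 and 758, 644 and 575, and 508 and 509. miR-27a and miR-24 overlapped between E2 and placebo. With EE miR-27a was lower, at 430 and 395 against 566 and 474 with placebo. miR-24 was slightly higher with EE, at 71 and 71 against 66 and 62 with placebo. The lymphoid sums were thus lower and the erythroid sums higher in all 4 estrogen samples than in both placebo samples, and the part of such shifts in the values of miR-376a was not tested. Of markers of tissue outside the spleen, 0 of 6 neural, 0 of 5 skeletal and cardiac muscle, 0 of 1 liver and 0 of 4 pancreas markers were above it. Of the stromal and smooth muscle list 2 of 8 were above the floor, miR-145 and miR-125b-5p, and its sums were 292 and 255 with placebo, 176 and 201 with E2 and 345 and 341 with EE. In samples of mixed cells, fewer cells of a type and less RNA per cell cannot be told apart.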

How the data were processed

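Splenocyte RNA was run by the manufacturer on the nCounter mouse miRNA assay, version 1.5, which follows miRBase 15, per the labels. The table deposited by the authors holds scores that are whole numbers. They behave as normalized counts: between samples, geometric means of the top 100 miRNAs ranged over 3.54%, and summed positive controls over 30.6%. How the authors normalized, corrected for background and rounded is not stated in the labels, so raw depth and counting error are unknown. Sums over all 626 probes were 167152 to 205209.

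limma 3.58.1 (R 4.3.3; lmFit, eBayes with trend) was fitted to log2(value + 1) of all 6 samples in 3 groups. Tested probes had a mean above the floor, which used all samples, so a probe high in 1 group could pass. miR-376a passed with a placebo mean just under the floor. p-values are two-sided, Benjamini-Hochberg adjusted over 95 miRNAs, threshold 0.05, and measure the spread between samples that may be technical. Fold changes are on the log2(value + 1) scale, which understates changes of low probes, and compare means of log2 values. The fit was tested on simulated data drawn with the moderated SDs. That test does not cover a miRNA whose own SD is far above its moderated SD, as for miR-376a.

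Members, lists and the naming rule (members with a mean above the floor or above the highest negative control in at least 4 samples, and the 4 others with the highest single value, ties by mean) were chosen with earlier results of these data known. miR-377, miR-381, miR-155 and other members named beside these were chosen after their values were seen. Probe names are those of the table. Alternatives covered scaling, filter, floor, pseudocount, background, variance and left-out samples, and the permutation test was added after seeing the data.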

Additional observations from a re-analysis of the deposited data

How the results depend on the processing

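The count of 1 cluster member above the floor was the same under all 11 alternatives (3 other floors, the floor of each sample, the median over samples and each left-out sample). By sample, the count in EE sample 1 was 3 with the floor of 39.9 obtained without the highest negative control probe, and the other counts by sample did not change. The number of members called was 0 in all alternatives for E2 with placebo and for EE with E2. It was 1 with housekeeping scaling for EE with placebo (log2 fold change of miR-376a 1.40, adjusted p 3.73e-04) and for both estrogens (1.08, adjusted p 0.00192), and 1 without E2 sample 1 for both estrogens, so leaving out a sample gave 0 to 1 there. The cause of these changes was not tested. In the fits without a sample, the lone sample of its group is assumed to vary like the other groups. The log2 fold change of miR-376a ran from -0.38 to 2.46 for E2 with placebo (2.30 at most when a sample was left out), from 0.51 (without placebo sample 1) to 3.01 for EE with placebo and from 0.34 to 2.73 for both estrogens. For E2 with placebo it reversed without E2 sample 2 (-0.38). For EE with E2 it reversed without E2 sample 1 (-1.003), without EE sample 1 (-0.14) and with ligation controls (-0.18), and leaving out a sample gave up to 1.68. None of these reversals was past the threshold. Subtracting the negative control mean lowered the summed member level to 201 with E2, 203 with EE and 93.1 with placebo, since most values then stood at the minimum of 1. No paired analysis was possible because the labels give the groups no shared replicate numbers. With 2 samples a group, no test for an outlying sample was possible, and 60 of 61 members are limited by signal over background.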
